A study of Mus musculus with 8 samples.

Results

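G protein-coupled receptors for lipids, nucleotides, metabolites, protons, complement fragments, formyl peptides and cell surface ligands were followed at the level of their transcripts in dendritic cells depleted of GRK2, GRK3 and GRK6. The set held 47 genes, all of them myeloid receptors other than chemokine receptors, which were picked by name from the 47937 genes counted. Of these receptors, 46 had at least 10 reads over all 8 libraries together and were taken as expressed. Adrb1, the beta-1 adrenergic receptor, had 8 reads and was not. The cells were bone marrow-derived dendritic cells (BMDCs), grown from C57BL6/J mouse bone marrow for 8 days in medium with 20 ng/ml GM-CSF, a growth factor for myeloid cells. They were left unstimulated or received 20 ng/ml lipopolysaccharide (LPS), a bacterial cell wall component that activates Toll-like receptor 4, for 1 day. The knockout cells (3xGrk-/-) came from adult mice that carried Vav-iCre together with floxed alleles of both Grk2 and Grk6 (Grk2 fl/fl and Grk6 fl/fl) and were Grk3-/-. Cre under the Vav promoter acts from early haematopoietic precursors onwards, and Grk3 is missing in the germline. WT cells came from mice of matched age and sex without Cre. Each of the 4 groups (unstimulated WT, unstimulated 3xGrk-/-, LPS-stimulated WT and LPS-stimulated 3xGrk-/-) had 2 libraries. The study's methods describe RNA extraction in technical replicates, so the p-values below measure the spread between these libraries, which may be technical only. GM-CSF cultures hold macrophage-like cells beside dendritic cells, and a change in bulk RNA cannot tell fewer cells of a type from less RNA per cell.

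All of these receptors cross the membrane with 7 helices and switch on heterotrimeric G proteins inside the cell. Receptors that couple to Gs raise cyclic AMP, those that couple to Gi lower it and steer cell migration, and those that couple to Gq release calcium. GRKs phosphorylate an activated receptor, which lets arrestins bind, uncouples it from its G protein and brings it into the cell. Myeloid cells use chemoattractant receptors to find sites of infection, receptors for prostaglandins and adenosine to restrain activation, and P2Y receptors to sense nucleotides from damaged cells.

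The libraries held 4713305 to 6933358 reads assigned to genes. Levels are given as CPM (reads of a gene per 1000000 reads on genes) after TMM scaling over the 8 libraries, a scaling that assumes most genes do not differ. Gm42418, a gene that overlaps ribosomal RNA, took 0.273% to 2.16% of the reads, most in LPS-stimulated 3xGrk-/- replicate 2, and none of the 174 receptor calls over the 5 comparisons was lost when it was left out. The targeted transcripts were lower in every 3xGrk-/- library than in every WT library of the same state. Grk2 stood at 46.4% of the WT mean without and 27.1% with LPS, Grk6 at 43.8% and 34.5%, and Grk3 at 78.2% and 75.0%. These are transcript counts and do not measure protein. By immunoblot, the paper reports that the proteins GRK2, GRK3 and GRK6 were almost absent from BMDCs of this genotype. Of 13 markers of conventional dendritic cells, 12 reached 10 reads in all. Xcr1 did not, and all 7 lymphocyte markers stayed under 10 reads. The summed level of 14 monocyte and macrophage markers was 2369 to 2400 CPM in unstimulated WT, 8720 to 8760 in unstimulated 3xGrk-/-, 616 to 637 in LPS-stimulated WT and 6613 to 6690 in LPS-stimulated 3xGrk-/- libraries. Lyz2 alone had means of 1330, 7080, 286 and 4586 CPM in the same order and made up most of the sum in 3xGrk-/- libraries. The summed level of 6 eosinophil markers was 927 to 985, 54.4 to 57.9, 913 to 984 and 36.5 to 42.9 CPM in the same order. These levels moved with many of the results below, and their part in them was not tested. The summed level of 6 stromal markers was 13.5 to 23 CPM in LPS-stimulated WT and 138 to 148 in LPS-stimulated 3xGrk-/- libraries, and under 3 CPM in every resting library. With LPS, 4 of the 6 were higher in 3xGrk-/- cells, foremost decorin (Dcn, 1.72 and 120.1 CPM), and Lum was lower (-0.62). The sum of 9 mast cell and basophil markers was 97.4 to 102 and 289 to 295 CPM with LPS, and 49.1 to 52.8 and 64.6 to 72.1 CPM without. Most of this sum with LPS was Hdc, which encodes the histamine-forming enzyme (55.7 CPM in WT and 257 in 3xGrk-/- cells). Of 6 markers of that list tested with LPS, Hdc was higher in 3xGrk-/- cells and 3 were lower (Mcpt8 -1.24, Ms4a2 -3.93 and Prss34 -1.12 on the log2 scale), and the median was -0.69. The part of both lists in the LPS comparisons was not tested either.

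The first comparison asked which receptor transcripts differed between genotypes in resting cells. More receptors were higher than lower in 3xGrk-/- cells. Receptors for complement fragments, chemerin and formyl peptides and the P2Y receptors P2ry13 and P2ry14 were among the higher ones, while Gpr82, the prostaglandin receptor Ptger3 and the short-chain fatty acid receptor Ffar2 were among the lower ones. Of 45 receptors tested, 24 passed as higher and 14 as lower at an adjusted p of 0.05 (edgeR quasi-likelihood test, Benjamini-Hochberg adjustment over all genes tested). Over all 12000 genes tested, 44.7% passed, 22.1% higher and 22.7% lower. Scaled by library size alone, 22 receptors were higher and 15 lower, beside 1968 and 3525 of all genes. The median log2 fold change was 0.41 over the receptors and 0.00 over all genes. By at least 2-fold, 14 receptors were higher and 11 lower, and 4.82% and 7.22% of all genes passed that rule. The libraries of the 2 genotypes did not overlap for 42 of the 45 receptors, and for 69.1% of all genes. Gpr18 had too few reads to be tested in resting cells.

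The second comparison asked the same question after 1 day of LPS, when dendritic cells mature. The leads of 3xGrk-/- cells were long for several receptors here, with P2ry6 7.55-fold, Cmklr1 7.63-fold, C3ar1 7.64-fold, C5ar1 9.14-fold and Lpar6 9.22-fold above WT. Of 42 receptors tested, 22 were higher and 11 lower, beside 24.7% and 24.0% of all 11830 genes tested and 48.6% in either direction. All 22 higher receptors were so by at least 2-fold, and 5 of the 11 lower ones, where 10.3% and 6.43% of all genes passed that rule. The median log2 fold change was 1.17 over the receptors and -0.01 over all genes. The libraries did not overlap for 36 of the 42 receptors and for 72.6% of all genes. Of the receptors, 15 were higher in 3xGrk-/- cells in both states and 8 were lower in both, beside 12.4% and 10.5% of the 11350 genes tested in both. In addition, 4 changed direction between the states: Ptger4, S1pr3 and F2rl1 were higher without LPS and lower with it, and Hcar2 was lower without LPS and higher with it. The resting calls of Ptger4 and F2rl1 were each lost in some alternatives, as were, in 1 of the states, those of Adora2b and P2ry2 among the 15 and of Gpr171, Gpr183, P2ry10 and S1pr4 among the 8. Another 6 (P2ry6, S1pr2, Hrh2, Gpr35, Ptafr and Adgre5) passed the test only with LPS, and for Hrh2 the difference between the states did not pass itself (1.17, adjusted p = 0.0835). The shares of all genes that changed direction or passed only with LPS were not counted, so these numbers have no background beside them. Ptger3, P2ry12, Lpar5 and Gpr34 had too few reads to be tested with LPS.

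**Figure D1:**
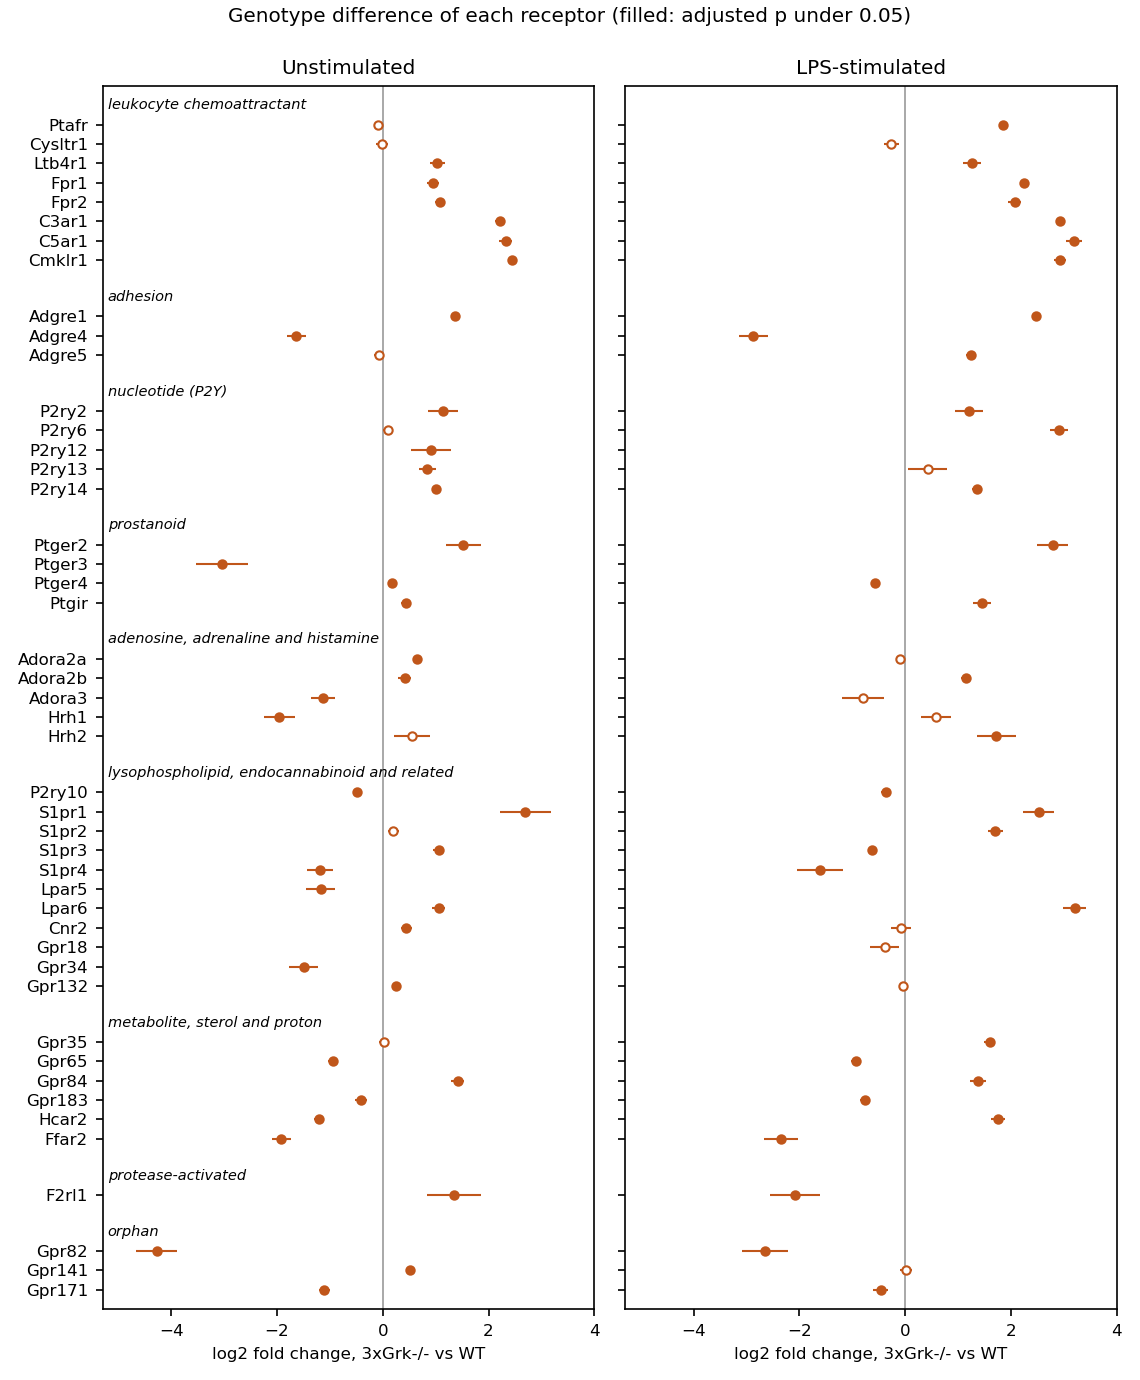
The log2 fold change of each tested receptor between 3xGrk-/- and WT BMDCs (x axis) is plotted with its SE (bars) for unstimulated cells on the left and LPS-stimulated cells on the right, with receptors grouped by ligand class. Filled points passed an adjusted p of 0.05. The chemoattractant receptors lie to the right of 0 in both states apart from Ptafr and Cysltr1 without LPS and Cysltr1 with LPS, and Gpr82 lies farthest to the left, at -4.27 without LPS.

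The third set of comparisons asked how each genotype responded to LPS, and whether the responses differed. WT cells lowered most of these receptors, with the largest falls in Lpar5, P2ry6, Lpar6 and Gpr34 and rises in Gpr18, S1pr3 and Adora2a. In WT cells 14 of 46 receptors were higher and 25 lower after LPS, beside 60.3% of all 12541 genes tested in either direction (29.5% higher, 30.8% lower). In 3xGrk-/- cells 19 were higher and 18 lower, beside 55.4% of all genes (28.0% higher, 27.4% lower). Scaled by library size alone, which moved the median of all genes to -0.23 in both genotypes, 14 and 30 receptors were higher and lower in WT and 18 and 21 in 3xGrk-/- cells, beside 2443 and 5420 and 2245 and 5200 of all genes. The median response was -0.58 in WT and 0.25 in 3xGrk-/- cells on the log2 scale, where the medians over all genes were -0.01 in each. Both genotypes raised 12 receptors and both lowered 15, beside 18.5% and 18.8% of all genes. Of the 12, Gpr183 and S1pr1 lost the call of 1 genotype in some alternatives, and of the 15 Adgre4, Adora3, Gpr84 and P2ry12 that of 1 genotype and Ltb4r1 those of both. Hrh1, Gpr35, Hcar2, Ptafr and Adgre5 fell in WT and rose in 3xGrk-/- cells, and F2rl1 did the reverse, with a 3xGrk-/- call that was lost in some alternatives. The share of all genes with opposite responses was not counted. The difference of the responses itself (the genotype by LPS interaction) passed the test for 27 receptors, 19 with a more positive response in 3xGrk-/- cells and 8 with a more negative one. Of all genes, 32.5% passed, 16.5% and 16.0% in these directions. Its median was 0.34 over the receptors and 0.01 over all genes.

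**Figure D2:**
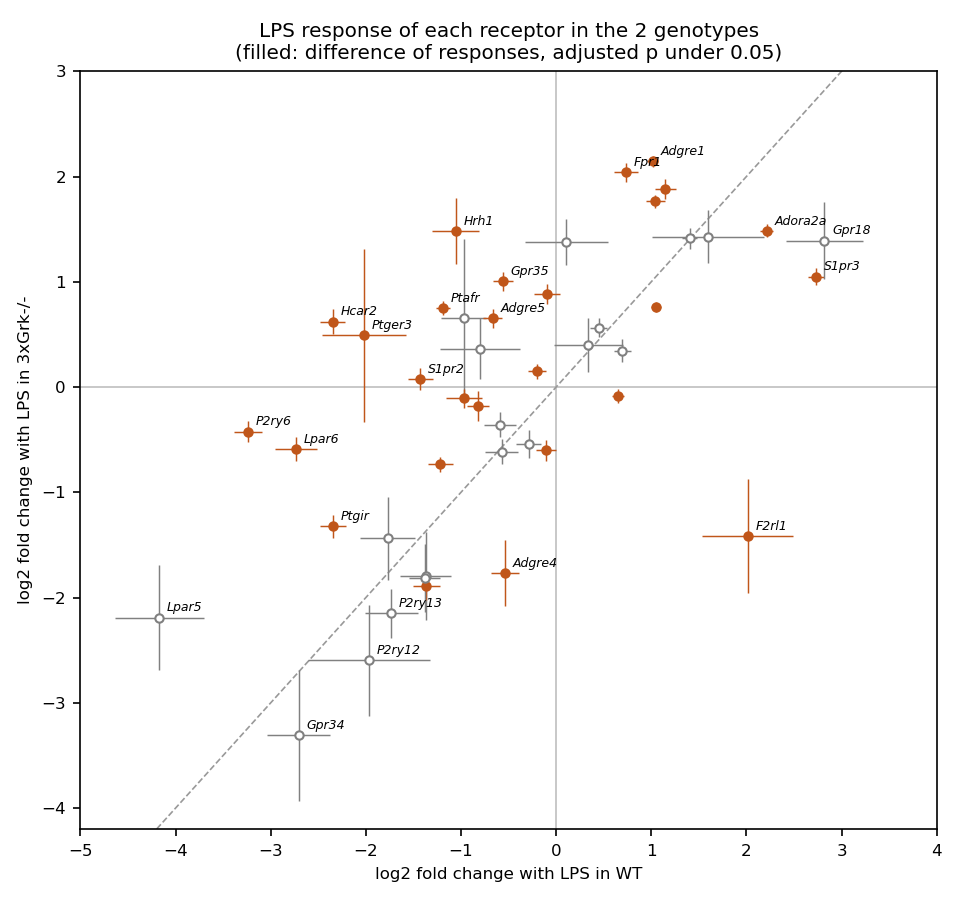
The log2 fold change with LPS in WT cells (x axis) is set against that in 3xGrk-/- cells (y axis) for each of 46 receptors, with SE bars. The dashed line marks equal responses, and filled points are the 27 receptors whose responses differed between genotypes. Hcar2, P2ry6, Hrh1 and Lpar6 lie above the line and F2rl1, S1pr3 and Adgre4 below it.

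Receptors for leukocyte chemoattractants were mostly higher in 3xGrk-/- cells. Of 8 tested, 6 were higher in 3xGrk-/- cells without LPS and 7 with LPS, and none was lower, where 22.1% and 22.7% of all genes were higher and lower without LPS and 24.7% and 24.0% with LPS. The class had medians of 1.06 and 2.16 on the log2 scale. C3ar1, the receptor for the complement fragment C3a, was at 23.3 and 21.9 CPM in unstimulated WT, 100.1 and 109 in unstimulated 3xGrk-/-, 46.5 and 46.3 in LPS-stimulated WT and 346 and 362 in LPS-stimulated 3xGrk-/- libraries. Its difference between genotypes was 2.21 ± 0.091 (adjusted p = 2.26e-127) on the log2 scale (± SE, here and below) in resting cells and 2.93 ± 0.074 (adjusted p = 4.29e-18) after LPS. LPS raised it in both genotypes, by 1.04 ± 0.10 in WT and 1.76 ± 0.062 in 3xGrk-/- cells, and by more in the latter (difference 0.72 ± 0.12 (adjusted p = 2.04e-05)). C5ar1, which binds C5a, was at 11.3 and 11.6 CPM in WT and 58.3 and 57.1 CPM in 3xGrk-/- libraries without LPS, and 6.53 and 5.26 CPM and 52.9 and 54.3 CPM with LPS. Every 3xGrk-/- library was thus above every WT library, by 2.33 ± 0.12 (adjusted p = 1.52e-77) in resting and 3.19 ± 0.15 (adjusted p = 1.46e-13) in LPS-stimulated cells. The transcript fell with LPS in WT cells (-0.97 ± 0.19 (adjusted p = 8.08e-05)), and its value in 3xGrk-/- cells was -0.11 ± 0.09 (adjusted p = 0.326).

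Cmklr1, the receptor for chemerin, went from 26.2 and 23.8 CPM to 10.7 and 10.7 CPM with LPS in WT, and from 138 and 134 CPM to 80.7 and 82.7 CPM in 3xGrk-/- cells. Both genotypes lowered it with LPS (-1.22 ± 0.14 and -0.73 ± 0.071), and 3xGrk-/- cells kept more of it than WT cells in each state (2.45 ± 0.083 (adjusted p = 1.48e-184) without and 2.93 ± 0.12 (adjusted p = 1.42e-14) with LPS). The formyl peptide receptors Fpr1 and Fpr2 sense peptides that bacteria and mitochondria release. Fpr1 was at 22.7 and 18.9 CPM in unstimulated WT, 44 and 35.1 in unstimulated 3xGrk-/-, 37 and 31.7 in LPS-stimulated WT and 161 and 166 in LPS-stimulated 3xGrk-/- libraries. Its genotype difference was 0.95 ± 0.12 (adjusted p = 4.61e-15) in resting and 2.26 ± 0.09 (adjusted p = 1.04e-14) in LPS-stimulated cells. In other words, the 3xGrk-/- libraries already led without LPS and led by more with it. Fpr2 was at 24.1 and 26.9 CPM in WT and 56.5 and 52.1 CPM in 3xGrk-/- libraries without LPS, and 27.4 and 20.9 CPM and 93.6 and 107 CPM with LPS. The differences were 1.08 ± 0.10 (adjusted p = 7.55e-25) and 2.07 ± 0.12 (adjusted p = 5.36e-12), and LPS raised Fpr2 in 3xGrk-/- cells by 0.89 ± 0.094, whereas its value in WT cells was -0.10 ± 0.14 (adjusted p = 0.541). Exons of Fpr2 share 48 bases with those of Fpr3 on the same strand.

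Ltb4r1, the leukotriene B4 receptor that guides neutrophil swarms, was at 14.3 and 14.3 CPM in unstimulated WT, 31 and 27.4 in unstimulated 3xGrk-/-, 10.3 and 8.82 in LPS-stimulated WT and 22.9 and 22.9 in LPS-stimulated 3xGrk-/- libraries. It was higher in 3xGrk-/- cells by 1.03 ± 0.14 (adjusted p = 3e-13) without and 1.26 ± 0.16 (adjusted p = 1.49e-06) with LPS, and no library of a genotype overlapped the other genotype. Ptafr, the receptor for platelet-activating factor, went from 116 and 116 CPM to 51.9 and 50.3 CPM with LPS in WT, and from 106 and 114 CPM to 187 and 182 CPM in 3xGrk-/- cells. The resting libraries lay close together (-0.09 ± 0.061, adjusted p = 0.252), and after LPS the knockout libraries stood 3.61-fold above WT (1.85 ± 0.078 (adjusted p = 2.66e-14)). The response to LPS was a fall in WT (-1.19 ± 0.075) and a rise in 3xGrk-/- cells (0.75 ± 0.064), and the difference of the responses was 1.94 ± 0.10 (adjusted p = 4.33e-15). Cysltr1, the receptor for cysteinyl leukotrienes, was at 29.8 and 35.3 CPM in WT and 31.9 and 33.5 CPM in 3xGrk-/- libraries without LPS, and 31 and 23.2 CPM and 23.6 and 21.4 CPM with LPS. Its libraries overlapped between genotypes in both states, and neither difference passed the test (-0.01 ± 0.11 and -0.26 ± 0.15).

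**Figure D3:**
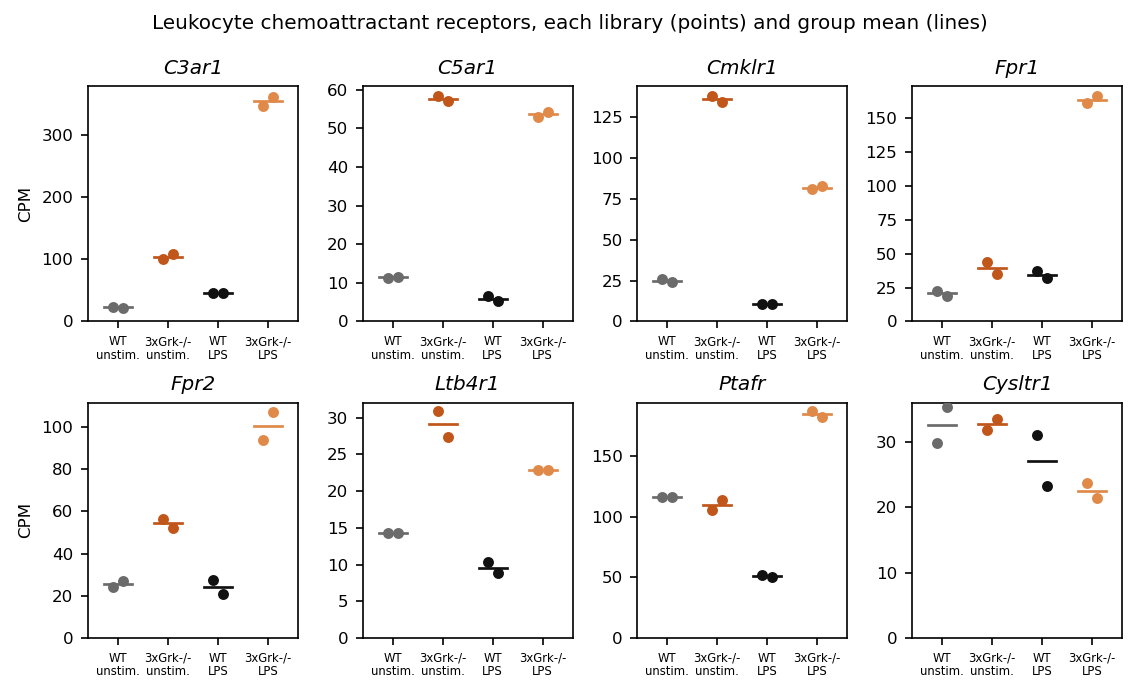
The level in CPM (y axis, from 0) of each of 8 chemoattractant receptors is shown for every library (points) and as the mean of the 2 libraries of a group (lines). The 3xGrk-/- points lie above the WT points of the same state for C3ar1, C5ar1, Cmklr1, Fpr1, Fpr2 and Ltb4r1, and for Ptafr only with LPS.

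The promoters of the 6 of these receptors that were higher in both states are shown, also because Fpr1 and Fpr2 are neighbours on chromosome 17 that are read in opposite directions from starts 3885 bases apart. The sequences are the 250 bases before the transcription start, 5′ to 3′ on the gene's strand, from RefSeq on GRCm38.p6. Capitals mark matches on either strand to 6 motifs: TGACGTCA (CRE), TGANTCA (AP-1), GGG-NN-TTTCC (NF-kB), GAAA-NN-GAAA (ISRE), GAGGAA (PU.1) and CACGTG (E-box).
Fpr1, minus strand, chr17:17883940-17884189: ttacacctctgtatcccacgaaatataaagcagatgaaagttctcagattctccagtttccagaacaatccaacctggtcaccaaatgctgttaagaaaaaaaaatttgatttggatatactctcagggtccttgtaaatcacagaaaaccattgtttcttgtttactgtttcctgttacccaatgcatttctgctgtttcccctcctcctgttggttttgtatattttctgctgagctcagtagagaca
Fpr2, plus strand, chr17:17887574-17887823: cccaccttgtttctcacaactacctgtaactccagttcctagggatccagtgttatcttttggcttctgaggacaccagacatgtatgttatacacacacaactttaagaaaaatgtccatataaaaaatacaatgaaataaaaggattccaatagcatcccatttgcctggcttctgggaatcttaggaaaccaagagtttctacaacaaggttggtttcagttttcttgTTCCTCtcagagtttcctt
C3ar1, minus strand, chr6:122856158-122856407: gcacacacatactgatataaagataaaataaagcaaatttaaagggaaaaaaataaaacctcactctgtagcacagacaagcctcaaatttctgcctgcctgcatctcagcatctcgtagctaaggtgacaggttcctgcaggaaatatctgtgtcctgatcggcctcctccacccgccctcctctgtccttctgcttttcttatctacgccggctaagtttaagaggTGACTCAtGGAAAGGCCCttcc
Cmklr1, minus strand, chr5:113643604-113643853: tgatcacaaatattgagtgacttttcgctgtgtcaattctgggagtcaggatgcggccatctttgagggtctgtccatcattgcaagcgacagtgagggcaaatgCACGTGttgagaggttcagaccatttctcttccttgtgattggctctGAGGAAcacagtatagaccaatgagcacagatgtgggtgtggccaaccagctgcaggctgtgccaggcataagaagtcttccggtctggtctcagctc
C5ar1, minus strand, chr7:16259339-16259588: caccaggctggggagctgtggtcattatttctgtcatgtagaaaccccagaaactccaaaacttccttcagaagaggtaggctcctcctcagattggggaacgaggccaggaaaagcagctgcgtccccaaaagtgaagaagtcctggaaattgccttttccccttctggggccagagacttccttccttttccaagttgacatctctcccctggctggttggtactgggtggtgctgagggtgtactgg
Ltb4r1, plus strand, chr14:55765712-55765961: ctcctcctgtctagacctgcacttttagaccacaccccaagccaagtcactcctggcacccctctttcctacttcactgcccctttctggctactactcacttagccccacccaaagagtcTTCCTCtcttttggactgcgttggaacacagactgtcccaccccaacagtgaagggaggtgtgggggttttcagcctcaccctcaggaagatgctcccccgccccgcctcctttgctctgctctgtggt
The Fpr1 and C5ar1 windows held none of the 6 motifs, and the Fpr2 and Ltb4r1 windows a single PU.1 match each. C3ar1 held an AP-1 match 22 bases before its start, with an NF-kB match 14 bases before it, and Cmklr1 held an E-box and a PU.1 match. The table had promoters for 37 of the 47 receptors, in 52 windows, since some genes have several starts. PU.1 letters were in 20 of these windows (38.5%, beside 23.3% of all 32841 windows searched) and AP-1 letters in 8 (15.4%, beside 6.75%). The E-box was in 4 (7.69%, beside 6.02%), and CRE (in S1pr2), NF-kB (in C3ar1) and ISRE (in Gpr18) were in 1 window each (1.92%), beside 1.55%, 1.41% and 2.98% of all windows. These are matches of letters and no evidence of binding.

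Among the adhesion receptors, the 3 members moved in different directions. Adgre1, which encodes the macrophage marker F4/80, was at 108 and 99.7 CPM in unstimulated WT, 263 and 267 in unstimulated 3xGrk-/-, 208 and 211 in LPS-stimulated WT and 1150 and 1190 in LPS-stimulated 3xGrk-/- libraries. The knockout libraries were 2.56-fold above WT in resting cells (1.36 ± 0.052 (adjusted p = 4.54e-144)) and 5.59-fold above after LPS (2.48 ± 0.06 (adjusted p = 2.62e-18)). LPS raised Adgre1 in both genotypes and by more in 3xGrk-/- cells (difference 1.13 ± 0.077 (adjusted p = 2.47e-12)), so that it was the receptor with the highest level per kilobase of exon there, at 361 CPM per kb. Adgre4, an adhesion receptor of myeloid cells, went from 21 and 17.9 CPM to 13.8 and 12.8 CPM with LPS in WT, and from 5.83 and 6.6 CPM to 2.18 and 1.46 CPM in 3xGrk-/- cells. It was lower in 3xGrk-/- libraries in both states, with differences of -1.64 ± 0.18 (adjusted p = 3.07e-18) and -2.87 ± 0.28 (adjusted p = 2.14e-08). Its fall with LPS was larger in 3xGrk-/- cells (difference -1.23 ± 0.36 (adjusted p = 0.0081)), a call that was lost without LPS-stimulated 3xGrk-/- replicate 2 (-0.96, adjusted p = 0.102) and in DESeq2 (-1.24, adjusted p = 0.0633). Adgre5 encodes CD97, which binds CD55 on neighbouring cells, and was at 50.2 and 57 CPM in WT and 54 and 48.3 CPM in 3xGrk-/- libraries without LPS, and 33 and 34.8 CPM and 81.6 and 79.6 CPM with LPS. Genotypes overlapped in resting cells (-0.08 ± 0.087), and after LPS the knockout libraries were higher (1.25 ± 0.10 (adjusted p = 8.66e-10)). Its exons share 895 of 3757 bases with Ddx39 on the opposite strand, and the strand setting of the authors' counting is not given in the sources used here.

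All 5 P2Y receptors for nucleotides had positive values in resting cells. There, 4 of 5 were higher in 3xGrk-/- cells, and with LPS 3 of 4 tested, with none lower, beside 22.1% and 24.7% of all genes higher. The resting calls of P2ry2 and P2ry12 among them were each lost in some alternatives, as described for each. P2ry14, the receptor for UDP-glucose, was at 43 and 46.4 CPM in unstimulated WT, 91.4 and 89.95 in unstimulated 3xGrk-/-, 41.5 and 37 in LPS-stimulated WT and 101 and 100.4 in LPS-stimulated 3xGrk-/- libraries. The knockout libraries led in both states (1.01 ± 0.08 (adjusted p = 2.42e-35) and 1.36 ± 0.094 (adjusted p = 1.11e-10)), without overlap. P2ry6, the receptor for UDP, went from 49.3 and 50.3 CPM to 4.17 and 6.19 CPM with LPS in WT, and from 53.4 and 53.3 CPM to 41.5 and 38.3 CPM in 3xGrk-/- cells. The genotypes were 0.10 ± 0.088 apart in resting cells (adjusted p = 0.391) and 2.92 ± 0.17 (adjusted p = 7.83e-12) apart after LPS. WT cells lost the transcript 9.45-fold with LPS (-3.24 ± 0.15 (adjusted p = 6.96e-17)) and 3xGrk-/- cells 1.34-fold (-0.42 ± 0.10 (adjusted p = 0.000703)), a difference of 2.82 ± 0.19 (adjusted p = 1.81e-12). P2ry2, which binds ATP and UTP, was low, at 1.53 and 3.92 CPM in WT and 7.33 and 5.38 CPM in 3xGrk-/- libraries without LPS, and 3.08 and 4.18 CPM and 7.45 and 9.4 CPM with LPS. It was higher in 3xGrk-/- cells (1.14 ± 0.28 (adjusted p = 0.000175) and 1.20 ± 0.27 (adjusted p = 0.000784)), although the resting call was lost without WT replicate 1 (0.71, adjusted p = 0.0557) and in DESeq2 (1.19, adjusted p = 0.0751). Without WT replicate 2 the resting difference was 2.06, adjusted p = 2.96e-05.

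P2ry12 and P2ry13, both receptors for ADP, fell with LPS. P2ry13 was at 11.1 and 10.2 CPM in unstimulated WT, 17.4 and 21 in unstimulated 3xGrk-/-, 4.72 and 1.86 in LPS-stimulated WT and 3.45 and 5.03 in LPS-stimulated 3xGrk-/- libraries. LPS lowered it in WT (-1.73 ± 0.28) and in 3xGrk-/- cells (-2.15 ± 0.23), and the genotypes differed in resting cells (0.85 ± 0.16 (adjusted p = 8.15e-07)) but their libraries overlapped with LPS (0.42 ± 0.38, adjusted p = 0.372). The WT fall was -2.50 without LPS-stimulated WT replicate 1, where the genotype difference with LPS passed the test (1.20, adjusted p = 0.0319), and -1.16 without replicate 2. P2ry12 was at 1.15 and 2.1 CPM in WT and 3.14 and 3.3 CPM in 3xGrk-/- libraries without LPS, and 0.363 and 0.464 CPM and 0.364 and 0.649 CPM with LPS. It had 21 reads in unstimulated WT cells and 5 in LPS-stimulated WT cells, a 4.07-fold drop with a 95% counting interval of 1.49 to 13.8. The WT call of edgeR was lost in DESeq2 and without unstimulated replicate 2 or LPS-stimulated replicate 1. It also fell in 3xGrk-/- cells (-2.60 ± 0.52 (adjusted p = 9.81e-05)). Its difference between resting genotypes (0.91 ± 0.38 (adjusted p = 0.0366)) was lost in DESeq2, under scaling by library size, without a filter, in a joint fit of all 8 libraries, and without WT replicate 1 or 3xGrk-/- replicate 1 or 2, and without these 3 libraries in turn it was 0.61, 0.95 and 0.88. Without WT replicate 2 it was 1.47, adjusted p = 0.0408. Counting intervals and floors cover counting error only. P2ry12, P2ry13, P2ry14 and the orphan receptor Gpr171 lie side by side on chromosome 3, on the same strand and within the body of Med12l, which runs on the other strand. The ADP receptors are 5390 bases apart, P2ry13 and P2ry14 54274 and P2ry14 and Gpr171 12034. In resting 3xGrk-/- cells the P2Y genes of this cluster were higher than in WT and Gpr171 was lower.

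The prostanoid receptors split by subtype. Ptger2 and Ptger4, the Gs-coupled receptors for prostaglandin E2, did not move alike. Ptger2 was at 2.1 and 1.54 CPM in unstimulated WT, 4.64 and 5.73 in unstimulated 3xGrk-/-, 1.81 and 2.01 in LPS-stimulated WT and 11.1 and 15.6 in LPS-stimulated 3xGrk-/- libraries. Every knockout library was above every WT library, and the difference was 1.52 ± 0.33 (adjusted p = 2.07e-05) in resting and 2.79 ± 0.29 (adjusted p = 5.88e-08) in LPS-stimulated cells. Ptger4, far higher in reads, was at 150 and 144 CPM in WT and 164 and 168 CPM in 3xGrk-/- libraries without LPS, and 233 and 229 CPM and 168 and 145 CPM with LPS. It was slightly higher in resting 3xGrk-/- cells (0.18 ± 0.054 (adjusted p = 0.00337)), a call lost without WT replicate 2 (0.14, adjusted p = 0.103), under scaling by library size (0.09, adjusted p = 0.165) and in DESeq2 (0.18, adjusted p = 0.12), and lower with LPS (-0.56 ± 0.072 (adjusted p = 1.32e-06)). WT cells raised it with LPS (0.65 ± 0.063), and in 3xGrk-/- cells its value was -0.08 ± 0.064 (adjusted p = 0.276). Its exons share 1015 of 6648 bases with Gm15937 and 82 with Ttc33 on the opposite strand. Ptgir, the prostacyclin receptor, went from 41.8 and 45.4 CPM to 7.26 and 9.75 CPM with LPS in WT, and from 57.4 and 61.1 CPM to 23.4 and 23.8 CPM in 3xGrk-/- cells. Both genotypes lowered it, WT cells by more (difference 1.02 ± 0.19 (adjusted p = 8.67e-05)), and 3xGrk-/- cells kept 2.75 times the WT level after LPS (1.46 ± 0.17 (adjusted p = 3.64e-07)). Ptger3, the Gi-coupled receptor for prostaglandin E2, had 19 and 32 reads in unstimulated WT libraries and 4 and 2 in unstimulated 3xGrk-/- libraries, and with LPS 2 and 10 in WT and 3 and 5 in 3xGrk-/- libraries. In resting cells it was 8.25-fold lower in 3xGrk-/- than in WT libraries (-3.04 ± 0.49 (adjusted p = 1.42e-09)). With LPS it had too few reads to be tested between genotypes. In WT cells it fell with LPS (-2.02 ± 0.45 (adjusted p = 0.000265)). That fall was -1.40 without LPS-stimulated WT replicate 1 and -3.42 without replicate 2.

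Adenosine receptors that couple to Gs rose with LPS in both genotypes. Adora2a was at 64.2 and 62 CPM in unstimulated WT, 95 and 102 in unstimulated 3xGrk-/-, 286 and 298 in LPS-stimulated WT and 287 and 262 in LPS-stimulated 3xGrk-/- libraries. LPS raised it by 2.21 ± 0.066 in WT and 1.48 ± 0.063 in 3xGrk-/- cells, which had started from a higher level (0.64 ± 0.073 (adjusted p = 1.73e-17)), and with LPS the genotypes overlapped (-0.09 ± 0.063). Adora2b went from 22.7 and 21.2 CPM to 50.1 and 46.9 CPM with LPS in WT, and from 27.1 and 31.4 CPM to 103 and 111 CPM in 3xGrk-/- cells. Its response was larger in 3xGrk-/- cells (difference 0.73 ± 0.15 (adjusted p = 0.000318)), which held 2.21 times the WT level after LPS (1.15 ± 0.09 (adjusted p = 7.86e-10)). In resting cells it was also higher (0.41 ± 0.12 (adjusted p = 0.00266)), a call lost without WT replicate 2 (0.35, adjusted p = 0.0657) or 3xGrk-/- replicate 2 (0.31, adjusted p = 0.0932) and in DESeq2 (0.42, adjusted p = 0.124). Adora3, which couples to Gi, was at 11.5 and 9.39 CPM in WT and 3.14 and 6.42 CPM in 3xGrk-/- libraries without LPS, and 2.54 and 3.4 CPM and 2.18 and 1.3 CPM with LPS. It was lower in resting 3xGrk-/- cells (-1.14 ± 0.22 (adjusted p = 1.83e-06)), at -0.67 and -1.70 without 3xGrk-/- replicate 1 and 2, and LPS lowered it in WT cells (-1.77 ± 0.29 (adjusted p = 5.22e-06)). In 3xGrk-/- cells the fall (-1.44 ± 0.40 (adjusted p = 0.00281)) was lost without unstimulated replicate 2 (-0.87, adjusted p = 0.128) or LPS-stimulated replicate 2 (-1.09, adjusted p = 0.0561). Its exons share 779 of 3729 bases with Tmigd3 on the same strand, so reads may be split between these genes.

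The histamine receptors were low. Hrh1, which couples to Gq, was at 8.21 and 7.57 CPM in unstimulated WT, 2.09 and 1.91 in unstimulated 3xGrk-/-, 4.36 and 3.25 in LPS-stimulated WT and 5.09 and 6.16 in LPS-stimulated 3xGrk-/- libraries. It was 3.88-fold lower in resting 3xGrk-/- than in WT libraries (-1.95 ± 0.29 (adjusted p = 1.32e-10)). With LPS it fell in WT (-1.06 ± 0.25 (adjusted p = 0.000639)) and rose in 3xGrk-/- cells (1.48 ± 0.31 (adjusted p = 0.0002)), and the responses differed by 2.54 ± 0.40 (adjusted p = 1.01e-05). Hrh2, which couples to Gs, was at 2.1 and 2.52 CPM in WT and 3.44 and 3.47 CPM in 3xGrk-/- libraries without LPS, and 1.27 and 1.39 CPM and 4.91 and 4.05 CPM with LPS. Every 3xGrk-/- library was above every WT library in both states, with a difference that passed the test with LPS (1.72 ± 0.37 (adjusted p = 0.000546)) and did not without (0.56 ± 0.34, adjusted p = 0.184).

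Receptors for sphingosine 1-phosphate, the lipid that draws lymphocytes out of lymph nodes, went in different directions. S1pr1 was at 0.382 and 0.701 CPM in unstimulated WT, 4.64 and 2.78 in unstimulated 3xGrk-/-, 1.45 and 2.01 in LPS-stimulated WT and 10.2 and 10.2 in LPS-stimulated 3xGrk-/- libraries. It was the receptor of this family with the largest lead in 3xGrk-/- cells (2.696 ± 0.48 (adjusted p = 6.93e-08) and 2.53 ± 0.29 (adjusted p = 2.9e-07)), from low levels in WT. S1pr2 went from 30.6 and 31 CPM to 12.2 and 10.8 CPM with LPS in WT, and from 35 and 36 CPM to 36.5 and 38.1 CPM in 3xGrk-/- cells. WT cells lowered it (-1.43 ± 0.13 (adjusted p = 2.95e-10)), and in 3xGrk-/- cells its value was 0.08 ± 0.10 (adjusted p = 0.557). The genotypes differed after LPS (1.70 ± 0.14 (adjusted p = 1.69e-09)). In resting cells both 3xGrk-/- libraries were above both WT libraries, but the difference did not pass the test (0.20 ± 0.11, adjusted p = 0.123). S1pr3 was at 22.4 and 25.6 CPM in WT and 52.4 and 48.3 CPM in 3xGrk-/- libraries without LPS, and 159 and 163 CPM and 102 and 106 CPM with LPS. The 3xGrk-/- libraries were 2.08-fold above WT without LPS (1.06 ± 0.11 (adjusted p = 4.06e-22)) and below WT with it (-0.62 ± 0.072 (adjusted p = 2.89e-07)). LPS raised S1pr3 in both genotypes, by 2.73 ± 0.085 in WT and 1.05 ± 0.079 in 3xGrk-/- cells, a difference of -1.68 ± 0.12 (adjusted p = 5.79e-12). S1pr4 was at 8.02 and 8.41 CPM in unstimulated WT, 3.14 and 4.17 in unstimulated 3xGrk-/-, 2.54 and 3.71 in LPS-stimulated WT and 0.909 and 1.14 in LPS-stimulated 3xGrk-/- libraries. It was lower in 3xGrk-/- cells in both states (-1.19 ± 0.25 (adjusted p = 9e-06) and -1.60 ± 0.43 (adjusted p = 0.00387)), and the call with LPS was lost without LPS-stimulated WT replicate 2 (-1.28, adjusted p = 0.0957) or 3xGrk-/- replicate 1 (-1.45, adjusted p = 0.0584) and in DESeq2 (-1.61, adjusted p = 0.0956).

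Receptors for lysophosphatidic acid fell with LPS in WT cells. Lpar6 went from 20.2 and 17.1 CPM to 2.72 and 2.79 CPM with LPS in WT, and from 37.5 and 39.6 CPM to 23.4 and 27.6 CPM in 3xGrk-/- cells. The WT fall was 6.66-fold (-2.74 ± 0.22 (adjusted p = 9.9e-12)) and the 3xGrk-/- fall 1.5-fold (-0.59 ± 0.12 (adjusted p = 8.59e-05)), a difference of 2.15 ± 0.26 (adjusted p = 1.37e-07). The lead of 3xGrk-/- cells was therefore 2.08-fold in resting cells (1.06 ± 0.12 (adjusted p = 2.49e-17)) and 9.22-fold after LPS (3.21 ± 0.21 (adjusted p = 6.13e-11)). Lpar6 lies within Rb1, which runs on the other strand, and shares 408 exon bases with it. Lpar5 was at 5.73 and 6.87 CPM in unstimulated WT, 2.99 and 2.6 in unstimulated 3xGrk-/-, 0.363 and 0.309 in LPS-stimulated WT and 0.545 and 0.649 in LPS-stimulated 3xGrk-/- libraries. It had 79 reads in unstimulated and 4 in LPS-stimulated WT libraries, 19.1-fold less in CPM (95% counting interval 7.18 to 71.9). It also fell in 3xGrk-/- cells (-2.19 ± 0.50 (adjusted p = 0.000415)), where it was lower than in WT before LPS (-1.18 ± 0.28 (adjusted p = 0.000117)), a call that DESeq2 did not make (-1.17, adjusted p = 0.0562).

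Gpr34 and P2ry10 are receptors for lysophosphatidylserine, a lipid that dying cells expose. Gpr34 was at 7.26 and 8.13 CPM in WT and 2.39 and 3.13 CPM in 3xGrk-/- libraries without LPS, and 1.09 and 1.24 CPM and 0.364 and 0.162 CPM with LPS. It was lower in resting 3xGrk-/- cells (-1.50 ± 0.27 (adjusted p = 1.67e-07)), and LPS brought it down in WT (-2.71 ± 0.34 (adjusted p = 5.69e-08)). In 3xGrk-/- cells it went from 34 to 3 reads with LPS, a 10.6-fold drop (95% counting interval 3.34 to 54.1). P2ry10, between 75.5 and 174 CPM in all libraries, was lower in 3xGrk-/- cells without LPS (-0.48 ± 0.066 (adjusted p = 2.64e-12)) and with it (-0.37 ± 0.10 (adjusted p = 0.00325)). The second call was lost without LPS-stimulated WT replicate 1 (-0.16, adjusted p = 0.0621). Gpr132, a receptor for oxidised lipids, was at 327 and 319.7 CPM in unstimulated WT, 392 and 373 in unstimulated 3xGrk-/-, 649.7 and 692 in LPS-stimulated WT and 659 and 639 in LPS-stimulated 3xGrk-/- libraries. It had the highest level per kilobase of exon of all 47 receptors in 3 of the 4 groups, from 119 CPM per kb in unstimulated to 247 in LPS-stimulated WT cells. LPS raised it by 1.05 ± 0.051 in WT and 0.76 ± 0.051 in 3xGrk-/- cells, and its genotype difference was 0.25 ± 0.042 (adjusted p = 4.09e-08) without and -0.05 ± 0.058 with LPS.

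Cnr2, the cannabinoid receptor of immune cells, went from 32.1 and 35.9 CPM to 13.4 and 13.2 CPM with LPS in WT, and from 46.7 and 46.5 CPM to 14.7 and 10.5 CPM in 3xGrk-/- cells. LPS lowered it in both genotypes (-1.36 ± 0.14 (adjusted p = 1.39e-09) and -1.89 ± 0.13 (adjusted p = 7.8e-13)). Gpr18, a receptor proposed to bind N-arachidonyl glycine, was at 1.34 and 0.42 CPM in WT and 1.5 and 1.91 CPM in 3xGrk-/- libraries without LPS, and 5.99 and 5.72 CPM and 4.73 and 4.22 CPM with LPS. It rose with LPS in both (2.82 ± 0.41 (adjusted p = 6.77e-07) and 1.39 ± 0.36 (adjusted p = 0.00183)) and its libraries in the LPS-stimulated groups were -0.39 ± 0.27 apart (adjusted p = 0.238). Unstimulated WT libraries had 7 and 3 reads of Gpr18, and the WT rise was 3.73 without the first and 2.11 without the second. Its neighbour Gpr183, 36770 bases away on chromosome 14 and on the same strand, is the receptor for oxysterols that positions immune cells in lymphoid tissue. Gpr183, between 28.8 and 65.3 CPM, was lower in 3xGrk-/- cells in both states (-0.41 ± 0.11 (adjusted p = 0.000539) and -0.76 ± 0.10 (adjusted p = 1.65e-06)) and rose with LPS in WT cells (0.70 ± 0.092). DESeq2 did not make its resting call (-0.41, adjusted p = 0.0654).

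Of 6 metabolite and proton receptors, 1 was higher and 4 were lower in resting 3xGrk-/- cells, beside 22.1% and 22.7% of all genes. With LPS 3 were higher and 3 lower, beside 24.7% and 24.0%. Hcar2, the receptor for niacin and the ketone body beta-hydroxybutyrate, was at 61.5 and 56.3 CPM in unstimulated WT, 28.4 and 21.9 in unstimulated 3xGrk-/-, 11.1 and 11.9 in LPS-stimulated WT and 40.7 and 37.5 in LPS-stimulated 3xGrk-/- libraries. The 3xGrk-/- libraries were 2.31-fold below WT in resting cells (-1.21 ± 0.10 (adjusted p = 1.21e-31)) and 3.38-fold above WT with LPS (1.76 ± 0.14 (adjusted p = 8.22e-10)). Hcar2 fell in WT (-2.35 ± 0.13 (adjusted p = 4.93e-15)) and rose in 3xGrk-/- cells (0.62 ± 0.12 (adjusted p = 7.39e-05)), and the difference of 2.97 ± 0.18 (adjusted p = 2.21e-13) was the largest positive interaction of the set. Ffar2, a receptor for short-chain fatty acids, went from 20.4 and 20.9 CPM to 8.16 and 7.74 CPM with LPS in WT, and from 5.68 and 5.21 CPM to 1.27 and 1.78 CPM in 3xGrk-/- cells. It was 3.78-fold lower in 3xGrk-/- cells without LPS (-1.92 ± 0.18 (adjusted p = 3.93e-24)) and 5.09-fold lower with LPS (-2.35 ± 0.32 (adjusted p = 2.8e-06)), and it fell with LPS in both genotypes. Gpr84, the receptor for medium-chain fatty acids, was at 17.2 and 14 CPM in WT and 37.9 and 44.8 CPM in 3xGrk-/- libraries without LPS, and 9.44 and 11.1 CPM and 28.2 and 25.6 CPM with LPS. It was higher in 3xGrk-/- cells in both states (1.42 ± 0.12 (adjusted p = 1.13e-28) and 1.37 ± 0.16 (adjusted p = 2.4e-07)). Gpr84 shares 681 of 1725 exon bases with a gene on the other strand.

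Gpr35, for which kynurenic acid is a proposed ligand, went from 41.1 and 49 CPM to 28.9 and 32.6 CPM with LPS in WT, and from 46.4 and 46.7 CPM to 93.4 and 93.4 CPM in 3xGrk-/- cells. The genotypes overlapped in resting cells (0.03 ± 0.092), LPS lowered it in WT (-0.56 ± 0.11 (adjusted p = 5.04e-05)) and raised it in 3xGrk-/- cells (1.005 ± 0.089 (adjusted p = 1.16e-10)), and the lead of the latter after LPS was 3.03-fold (1.60 ± 0.10 (adjusted p = 1.75e-11)). Gpr65, a proton sensor that couples to Gs, was at 52.7 and 52 CPM in unstimulated WT, 29.5 and 24.7 in unstimulated 3xGrk-/-, 140.4 and 137 in LPS-stimulated WT and 68.5 and 76 in LPS-stimulated 3xGrk-/- libraries. It rose with LPS in both genotypes (1.41 ± 0.079 and 1.41 ± 0.10) and was lower in 3xGrk-/- cells in each state (-0.94 ± 0.10 (adjusted p = 3.79e-19) and -0.94 ± 0.08 (adjusted p = 2.88e-09)). The responses did not differ beyond their error (0.01 ± 0.13, adjusted p = 0.982). Its exons share 511 of 2069 bases with an antisense gene.

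The only protease-activated receptor of the set, F2rl1 (PAR2, which trypsin-like proteases cleave), had few reads, between 2 and 24 per library. It was at 1.15 and 0.561 CPM in WT and 2.24 and 1.91 CPM in 3xGrk-/- libraries without LPS, and 2.9 and 3.71 CPM and 0.364 and 1.14 CPM with LPS. WT cells raised it with LPS (2.02 ± 0.48 (adjusted p = 0.000554)), and after LPS it was lower in 3xGrk-/- libraries (-2.08 ± 0.48 (adjusted p = 0.000949)). Its responses differed by -3.43 ± 0.73 (adjusted p = 0.00038), the largest negative interaction. Without LPS-stimulated 3xGrk-/- replicate 1 or 2, which had 2 and 7 reads, the difference after LPS was -1.53 or -3.11 and the interaction -2.89 or -4.47. The higher value in resting 3xGrk-/- cells (1.35 ± 0.51 (adjusted p = 0.0196)) was lost without WT replicate 2 (0.85, adjusted p = 0.355) or 3xGrk-/- replicate 1 (1.22, adjusted p = 0.182) or 2 (1.45, adjusted p = 0.0698), and the fall with LPS in 3xGrk-/- cells (-1.41 ± 0.55 (adjusted p = 0.0268)) was lost without any of 3 of the 4 libraries involved, at -1.28, -1.52 and -0.87, and was -2.45 without the fourth. DESeq2 made neither of these calls, the resting one and the fall in 3xGrk-/- cells.

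**Figure D4:**
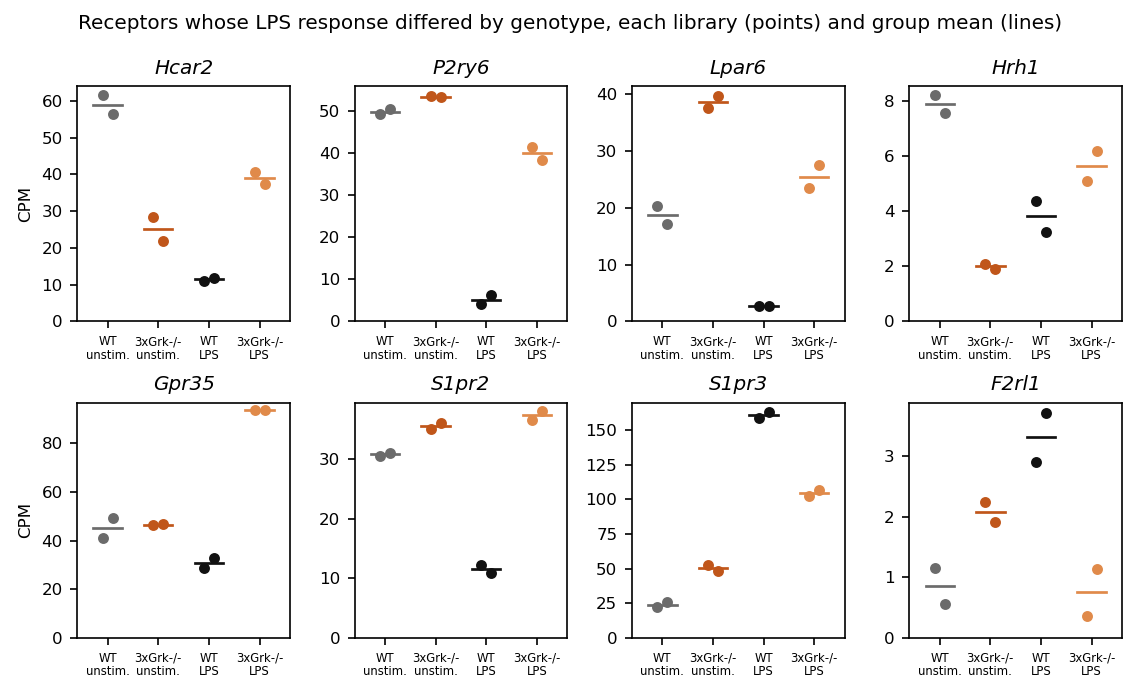
The level in CPM (y axis, from 0) of 8 receptors whose LPS response differed between genotypes is shown for every library (points) and as the mean of the 2 libraries of a group (lines). Hcar2 is lower in 3xGrk-/- than in WT cells without LPS and higher with it, S1pr3 and F2rl1 show the opposite order, and P2ry6, S1pr2 and Gpr35 passed the test between genotypes only with LPS.

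Gpr82 and Gpr171 were lower in 3xGrk-/- cells in both states. Both are orphan receptors, without an agreed natural ligand. Gpr82 was at 8.98 and 10.2 CPM in unstimulated WT, 0.299 and 0.695 in unstimulated 3xGrk-/-, 5.62 and 4.33 in LPS-stimulated WT and 1.09 and 0.486 in LPS-stimulated 3xGrk-/- libraries. The difference was -4.27 ± 0.39 (adjusted p = 7.46e-28) in resting cells, the largest of the set, and -2.64 ± 0.44 (adjusted p = 2.84e-05) with LPS, and no 3xGrk-/- library reached the lowest WT library. The 3xGrk-/- libraries held 2 and 4 reads without and 6 and 3 with LPS, and with single 3xGrk-/- libraries left out in turn the differences were -3.76 and -4.93 without LPS, and -3.28 and -2.14 with LPS. Gpr82 and Gpr34 are neighbours on the X chromosome, 20505 bases apart within the body of Cask, and both were lower in resting 3xGrk-/- cells. Between genotypes the summed eosinophil markers moved the same way as Gpr82, with Epx, which encodes eosinophil peroxidase, at 290.5 and 4.86 CPM in resting WT and 3xGrk-/- cells. Of 6 eosinophil markers 5 were lower in resting 3xGrk-/- cells, beside 22.7% of all genes, and Siglecf did not pass (-0.20, adjusted p = 0.258). With LPS in WT cells Gpr82 fell (-0.97, adjusted p = 0.000848), a call that DESeq2 did not make. The eosinophil sum there was 927 to 985 CPM without and 913 to 984 with LPS. The part of these markers in the Gpr82 result was not tested. Gpr171 went from 49.7 and 52.4 CPM to 33.6 and 24.9 CPM with LPS in WT, and from 24.4 and 23.1 CPM to 22 and 20.1 CPM in 3xGrk-/- cells. It was lower in 3xGrk-/- cells without LPS (-1.11 ± 0.11 (adjusted p = 4.11e-24)), and the smaller difference with LPS (-0.47 ± 0.15 (adjusted p = 0.0134)) was lost without WT replicate 1 (-0.24, adjusted p = 0.206) or 3xGrk-/- replicate 2 (-0.39, adjusted p = 0.0778) and in DESeq2 (-0.46, adjusted p = 0.108). Gpr141, a further orphan, stayed between 46.1 and 83.2 CPM and was higher in resting 3xGrk-/- cells (0.51 ± 0.078 (adjusted p = 4.18e-10)).

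**Figure D5:**
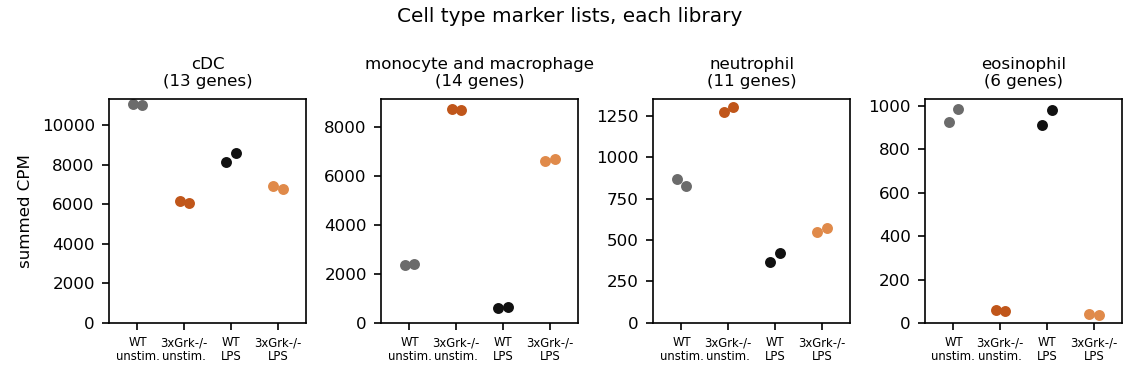
The summed CPM (y axis, from 0) of marker genes of 4 cell types is shown for each library. The sums of monocyte and macrophage markers are higher in 3xGrk-/- than in WT libraries in both states, those of dendritic cell markers are lower, and eosinophil markers lie between 36.5 and 57.9 CPM in 3xGrk-/- and between 913 and 985 CPM in WT libraries.

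Grouped by the G protein they mainly use, 5 of 7 tested Gs-coupled receptors were higher and 1 lower in resting 3xGrk-/- cells, and 4 were higher and 2 lower with LPS, where 22.1% and 22.7% of all genes were higher and lower in resting cells and 24.7% and 24.0% with LPS. Of 17 Gi-coupled receptors tested without LPS, 12 were higher and 5 lower, and of 15 tested with LPS, 10 were higher and 2 lower. Gq-coupled receptors counted 2 higher and 1 lower of 6, and 3 higher and 1 lower with LPS. The monocyte and macrophage markers moved with the chemoattractant receptors: 8 of 13 tested were higher and 4 lower in resting 3xGrk-/- cells, and 12 of 14 higher and 1 lower with LPS. In resting cells the complement genes C1qa, C1qb and C1qc were among the lower ones, at -1.61, -1.94 and -1.88, while Lyz2, Cd68 and Msr1 were higher by 2.41, 2.09 and 2.19. Of the dendritic cell markers 4 of 12 tested (Flt3, Itgax, Ccr7 and Clec9a) were higher and 7 lower in resting 3xGrk-/- cells, and 2 of 10 (Flt3 and Itgax) were higher and 8 lower with LPS. Of 11 neutrophil markers 6 were lower and 1, Mmp8, was higher in resting 3xGrk-/- cells. Their part in the receptor results was not tested.

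Of 61 other receptors of the same ligand families, 60 were in the tables, and 26 had enough reads in resting cells, where 5 were higher and 12 lower in 3xGrk-/- cells with a median of -0.25, and 22.1% and 22.7% of all genes were. With LPS 25 were tested, 7 were higher and 10 lower, beside 24.7% and 24.0% of all genes, and the median was -0.23. Adgrl2, an adhesion receptor for teneurins, was higher in both states (2.25, adjusted p = 7.96e-17, and 3.35, adjusted p = 1.35e-12). The thrombin receptor F2r was lower in both (-1.55, adjusted p = 1.27e-06, and -3.04, adjusted p = 1.47e-06). F2rl2, a protease-activated receptor, fell with LPS in both genotypes, from 52.9 to 1.69 CPM in WT and from 52.6 to 2.91 CPM in 3xGrk-/- cells.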

How the data were processed

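The authors prepared TruSeq stranded mRNA libraries, aligned the reads to mm10 with STAR and counted them per gene with featureCounts (GRCm38, per the labels). The annotation release and strand setting are not given in the sources used here. The values the authors deposited are unnormalized whole-number counts per gene in 2 tables of 4 libraries. No column was left unused. Gene names, positions and exon lengths came from GENCODE M21, which matched 47310 of 47937 gene IDs, and 0.0468% of the counts lay on unmatched IDs. Libraries held 4713305 to 6933358 counts. R 4.3.3 and edgeR 4.0.16 were used, with filterByExpr, TMM scaling and the quasi-likelihood test on each table for genotype, and on all 8 libraries for LPS responses and the interaction. P-values were adjusted (Benjamini-Hochberg) over all genes tested. The common biological coefficient of variation was 0.0306 without LPS, 0.0573 with LPS and 0.0463 over all libraries. Spread was so even without LPS that edgeR shared it across genes almost fully (prior degrees of freedom 3.24e+04), which gives very small p-values. SEs came from the test statistic. In simulated data with 200 changed genes, 161 to 186 were recovered in the 5 comparisons with 8 to 11 false calls. The simulated spread was that estimated from these libraries, and far more genes passed the tests in the data. The simulation therefore cannot show how many calls would be false under a larger spread between cultures. Library values are given for every receptor with an adjusted p under 0.05, an absolute log2 fold change of at least 1 in some comparison and at least 50 counts over the 8 libraries, and for the 5 highest per kilobase of exon. The receptors, lists and tests were chosen with earlier results of these data known. Alternatives were DESeq2 1.42.0, other scalings and filters, assumed spreads, the replicate block and leaving out each library.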

Additional observations from a re-analysis of the deposited data

Results flagged for a closer look

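For 27 receptors the response to LPS differed between genotypes by a test of the difference itself (edgeR quasi-likelihood test of the interaction, adjusted p under 0.05), where 32.5% of all genes passed. Values are the log2 response in 3xGrk-/- cells minus that in WT cells. Among receptors for chemoattractants the difference was 1.94 for Ptafr, 1.31 for Fpr1, 0.99 for Fpr2, 0.86 for C5ar1, 0.72 for C3ar1 and 0.48 for Cmklr1. The Cmklr1 call was lost without unstimulated WT replicate 1 (0.44, adjusted p = 0.0606) or LPS-stimulated WT replicate 2 (0.48, adjusted p = 0.064) and in DESeq2 (0.49, adjusted p = 0.0953). Hcar2 had 2.97, P2ry6 2.82, Hrh1 2.54, Lpar6 2.15, Gpr35 1.56, S1pr2 1.502, Adgre5 1.32, Adgre1 1.13, Ptgir 1.02 and Adora2b 0.73. Negative differences were seen for F2rl1 (-3.43), S1pr3 (-1.68), Adgre4 (-1.23), Ptger4 (-0.74), Adora2a (-0.73) and Gpr132 (-0.29).

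Besides the Cmklr1 call, the following calls, that of Adgre4 among them, were also lost in some alternatives before any larger spread was assumed. Ptger3 (2.51) passed only at an adjusted p of 0.0412 and lost its call when any library other than LPS-stimulated WT replicate 2 was left out, with values from 1.89 to 3.92 over the 8 cases. P2ry14 (0.35) lost it in 6 of the 8, with values over all 8 of 0.26 to 0.43, and Cnr2 (-0.53) in 6, with values of -0.78 to -0.30. Gpr141 (-0.50) lost it in 3, without replicate 1 of unstimulated WT, unstimulated 3xGrk-/- or LPS-stimulated WT, at -0.67 to -0.32 over the 8 cases. Gpr171 (0.64) lost it without LPS-stimulated WT replicate 2 (0.43, adjusted p = 0.0658) and in DESeq2 (0.64, adjusted p = 0.0635), and Adgre4 without LPS-stimulated 3xGrk-/- replicate 2 (-0.96, adjusted p = 0.102) and in DESeq2 (-1.24, adjusted p = 0.0633). DESeq2 also lost the interaction calls of Ptger3, P2ry14 and Cnr2.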

How the results depend on the processing

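Over the 5 comparisons 174 receptor values passed the test, and none changed direction under any alternative run. RLE size factors and leaving out Gm42418 lost none of these calls, scaling by library size lost 3, no filter 2 and DESeq2 22. Scaling by library size also moved the 3xGrk-/- response of Hcar2 to 0.40, of Adgre5 to 0.43 and of P2ry6 to -0.64, and the resting difference of Gpr132 to 0.16. Of 51 values that had not passed, 21 changed sign under some alternative and none of those then passed, while 19 passed in the same direction under some alternative. Since the libraries may be technical replicates, larger biological coefficients of variation were assumed. At 0.2 edgeR called 14 receptors higher in resting 3xGrk-/- cells, 6 lower with LPS, 10 lower in the LPS response of 3xGrk-/- cells, and 9 and 2 with a higher and lower interaction. At 0.4, 4 were higher and 2 lower in resting cells, 11 and 3 with LPS, 3 and 6 in the WT response, 4 and 4 in the 3xGrk-/- response, and 0 and 0 in the interaction, where edgeR gave 6 and 2 at an unadjusted p under 0.05 and DESeq2 15 and 6 at its own spread. In all, 37 of the 174 calls passed at 0.4, among them C3ar1, C5ar1, Cmklr1, S1pr1 and Gpr82 between genotypes in both states. At least 10 counts in every library left 6 receptors lower with LPS, 10 lower in the 3xGrk-/- response and 5 with a lower interaction. Fewer receptors were tested there, and Cnr2, which was still tested, lost its interaction call (-0.49, adjusted p = 0.0636). Over all genes, 2647 were higher and 2722 lower in resting cells, 2919 and 2835 with LPS, 3702 and 3859 in the WT response, 3510 and 3435 in the 3xGrk-/- response, and 2067 and 2003 in the interaction. DESeq2 called 1569 and 1517 in resting cells, 1845 lower with LPS, and 1342 and 1301 in the interaction. Scaled by library size alone, 2443 were higher in the WT response, and 2245 were higher and 5200 lower in the 3xGrk-/- response. In the same order as above, the counts were 625 and 823, 1350 and 886, 1437 and 1893, 1420 and 1384, and 495 and 172 at an assumed coefficient of 0.2, and 195 and 253, 569 and 213, 451 and 659, 552 and 298, and 61 and 11 at 0.4. With single libraries left out, the counts of receptors were 21 to 22 higher and 14 to 14 lower in resting cells, 22 to 23 and 9 to 11 with LPS, 13 to 15 and 24 to 27 in the WT response, 18 to 20 and 16 to 18 in the 3xGrk-/- response, and 16 to 19 and 6 to 8 in the interaction. Same-numbered libraries did not deviate together (correlations of -0.018 to 0.033 over 12541 genes), so the numbers gave no sign of pairing. Replicates differed by little more than counting error (median chi-square 1.16 to 1.92 times that of counting error), so this check cannot exclude pairing. With the replicate block the counts of receptors were 24 and 14, 22 and 11, 14 and 25, 19 and 18, and 18 and 7, in the same order, and the interaction calls of Ptger3 and Cnr2 were lost. Receptors with few reads, such as F2rl1, Ptger3, P2ry12 and Lpar5, were limited by depth.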

Other observations

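CPM per kilobase of exon lets levels be set side by side between receptors. In unstimulated WT cells Gpr132 led with 119 CPM per kb, before P2ry10 (37.6), Adgre1 (32), Ptafr (31.9) and Hcar2 (30.5). In LPS-stimulated WT cells Gpr132 (247) was followed by Adora2a (95.3), Gpr65 (67.1) and Adgre1 (64.6). In LPS-stimulated 3xGrk-/- cells the order was Adgre1 (361), Gpr132 (239), Fpr1 (124), Adora2a (89.8) and C3ar1 (82.2). C5ar2, the decoy receptor for C5a, was at 4.4 CPM in resting WT and 4.48 in resting 3xGrk-/- cells, next to C5ar1 that was 5.03-fold higher in the latter. With LPS it was at 1.14 and 2.56 CPM and higher in 3xGrk-/- cells (1.12, adjusted p = 0.041, edgeR), as was C5ar1. Gprc5b, an orphan receptor outside the set that was picked after its values were seen, had after LPS 1 and 0 reads in WT and 50 and 55 in 3xGrk-/- libraries, at mean levels of 0.0907 and 9 CPM.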
